A study of Mus musculus with 6 samples.

Results

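The proteasome is the large protease that degrades proteins tagged with ubiquitin, and the transcripts of its subunits and regulators were measured in microglia, the brain's own macrophages, from young mice. A gene belonged to the set when its mouse symbol was Psm followed by a letter from a to g and a number, which took 48 of the 26789 genes listed, spread over 16 chromosomes. Of these, 46 averaged at least 10 normalized counts in the 6 libraries and were tested for a difference between diets. The other 2, Psma8 and Psmb10, fell under that level and are given by their values only. No member passed the test for a difference between diets, and the values behind that are given below for each role.

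The libraries came from C57Bl/6 mice at P15 (postnatal day), 3 from controls and 3 from E3–E12 diet mice, and compare microglia of the rostral nucleus of the solitary tract (NST), a brainstem relay for taste. E3–E12 diet mice were born to dams that received food low in sodium only from E3 to E12 (embryonic days) and then returned to standard chow, which the dams of controls ate throughout. The dams on the low-sodium food also had distilled water in that period and were then switched to tap water. Per the methods of the study, the NST of several littermates was pooled so that each library stands for 1 litter, males and females were used, cells were taken with magnetic beads against CD11b, a protein of myeloid cells, and the RNA was amplified. The labels of the samples name laser microdissection and other kits in its place, so the way in which cells were obtained is uncertain. A p-value here measures the spread between litters, and each litter pool holds whatever other cells came with the microglia.

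Proteins enter the proteasome through a cap and are cut in a barrel. The barrel, the 20S core, stacks rings of alpha subunits (Psma genes), which gate the entrance, around rings of beta subunits (Psmb genes), of which some carry the proteolytic sites. Interferon induces substitutes for those catalytic subunits, Psmb8, Psmb9 and Psmb10, which form the immunoproteasome and change the peptides made for MHC class I presentation. The 19S cap has a base with a ring of ATPases (Psmc genes) that unfolds the substrate and a lid (Psmd genes) that removes ubiquitin. Psme genes encode other activators of the barrel, Psmf1 an inhibitor, and Psmg genes and some Psmd genes encode chaperones of assembly. Microglia present antigen and take up debris, and interferon raises immunoproteasome subunits in them as in other cells.

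All 8 microglia markers examined, among them Cx3cr1, P2ry12 and Tmem119, were above 0 in every library, and summed to between 9313 and 26132 CPM (normalized counts divided by the library total, times 1000000). Markers of other cells were present too. Those of oligodendrocytes summed to between 345 and 3280 CPM, those of choroid plexus to between 4.68 and 4266, those of endothelial cells to between 305 and 1077, those of astrocytes to between 88.3 and 365 and those of erythroid cells to between 0.207 and 18.4. In each of these lists the diets overlapped, and the part of such cells in the values below was not tested. Control library 2 stood apart from the rest. It had the highest total (17204618 normalized counts, against 9407141 to 14656956 in the others), the most genes listed at 0 (10640, against 3459 to 7135), the highest sum of neutrophil markers (187 CPM, against 35.2 to 68.2) and the lowest of neuronal markers (5.57 CPM, against 53.3 to 151). Of the 5 neuronal markers 3 were listed at 0 in it. The study's methods give a range of reads per sample, but the depth of each library is not stated. It could not be recovered either, because the deposited values are scaled. In bulk samples such as these, fewer cells of a type and less RNA per cell cannot be told apart.

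Members differed widely in level. Per kilobase of annotated exonic sequence, the mean over the 6 libraries was highest for Psmb5 (413 normalized counts per kilobase), followed by the nuclear activator subunit Psme3 (335), Psmb6 (290), Psme1 (283) and the lid subunit Psmd11 (248). These leading genes overlapped across libraries. Psmb5 lay between 181 and 859 normalized counts per kilobase and Psme3 between 230 and 605, so their order is not fixed by these libraries. The lowest of the tested members was the assembly chaperone Psmg3 at 9.86 normalized counts per kilobase, and under it came the untested members. Psma8, a testis-specific alpha subunit, had 2.33, 1.98 and 9.75 normalized counts in control libraries 1, 2 and 3 and 1.13, 2.25 and 16.1 in E3–E12 diet libraries 1, 2 and 3. Psmb10 was listed at 0 in 5 libraries. The 14 standard subunits of the 20S core are built into each barrel in equal number, yet per kilobase their levels in control library 1 ran from 30.9 to 181, with a coefficient of variation of 53.3% over the subunits. That coefficient was 54.5% in control library 3, between 76.4% and 105% in E3–E12 diet libraries and 150% in control library 2. These are levels of transcripts after amplification and say nothing of the amounts of protein. They also depend on the annotated length, which takes in every annotated exon of a gene. Psmb5 and Psmb1 each have 792 coding bases, but 899 and 4595 exonic bases. Their mean levels of 371 and 355 normalized counts thus became 413 and 77.3 per kilobase. How much of the order and of the coefficients comes from the annotation was not tested.

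**Figure D1:**
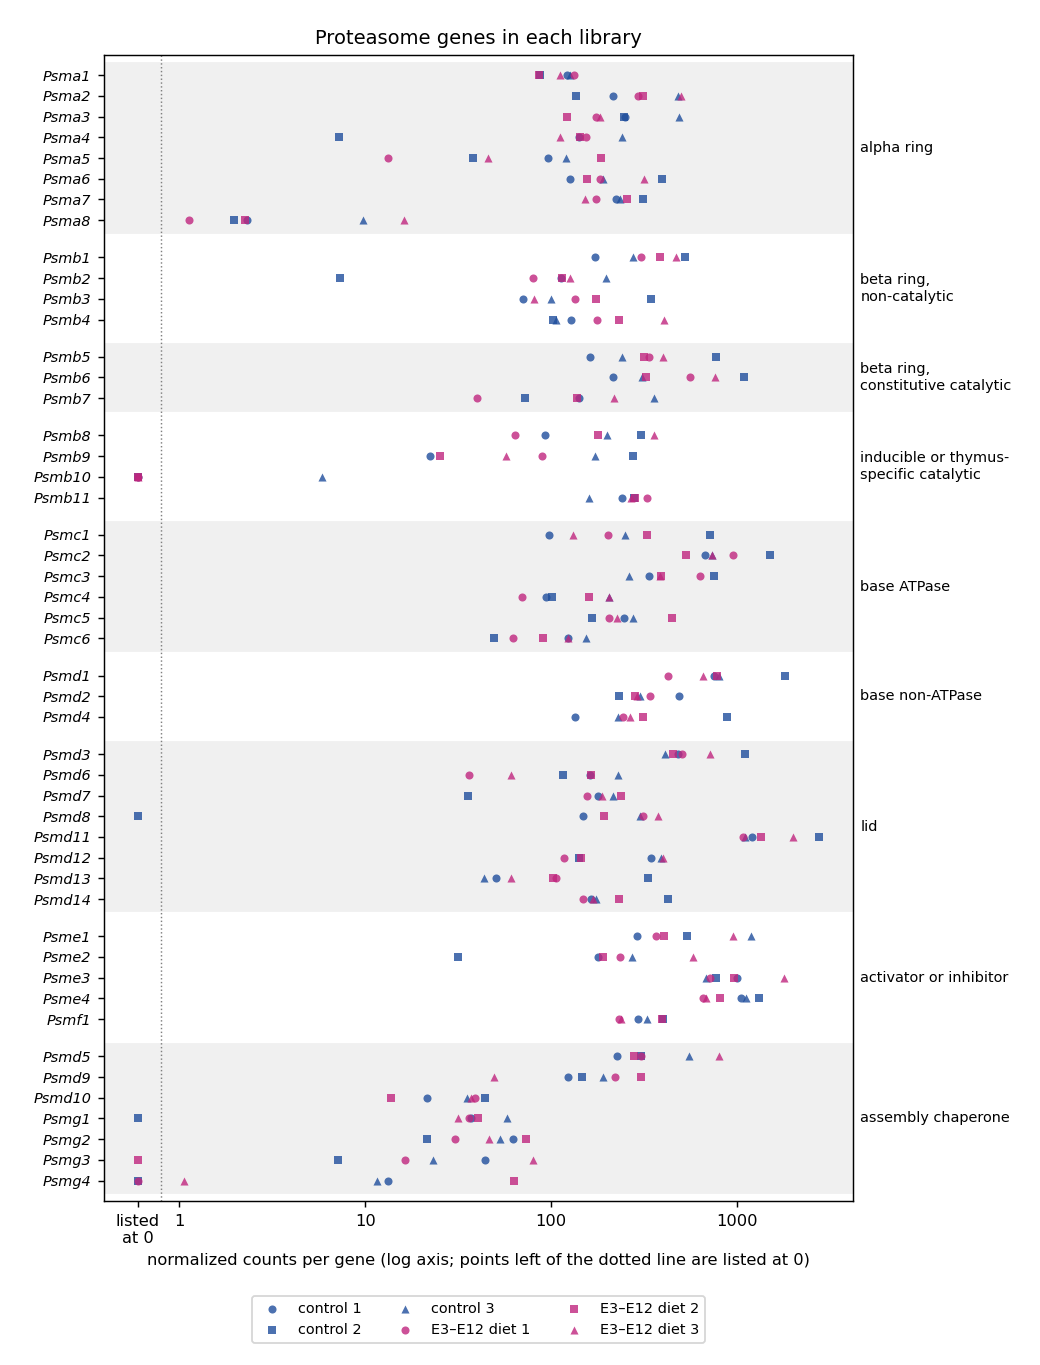
Normalized counts of the 48 proteasome genes in each library on a log axis, 1 row per gene, grouped by role. Blue symbols are the 3 control libraries and magenta symbols the 3 E3–E12 diet libraries, and points left of the dotted line are listed at 0. In most rows the colours are mixed, and the blue squares of control library 2 often lie at an edge, as for Psmd8, Psmb2 and Psma4.

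Each gene was compared between diets on the log2(normalized count + 1) scale with limma, two-sided, in a fit of the 18007 genes that averaged at least 10, and a log2 fold change is the E3–E12 diet mean minus the control mean on that scale, which understates changes of low genes. No member passed an adjusted p of 0.1 in this fit (0 of 46, and 0% of all genes, with Benjamini-Hochberg adjustment over all genes tested). That threshold is the study's, but the study applied it to another model, DESeq2, so a gene can pass there and not here. The smallest adjusted p of any gene was 0.225, and that of every member was 0.999. An unadjusted p under 0.05 was found for 0 members, against 1.82% of all genes (327), and limma with a robust trended prior also gave 0 members. The median standard error of a member's log2 fold change was 0.69. A difference has to be several times its standard error to be called. Differences of this size, and well above it, were thus not detectable in single members. For Psmb4, 1.18 ± 0.58 SE had a limma adjusted p of 0.999 with Benjamini-Hochberg adjustment. For all genes the median standard error was 0.85, and the median level was 144 normalized counts, against 227 for the members.

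The mean log2 level was higher in E3–E12 diet mice for 18 members and lower for 28, where 54.4% of all genes were higher. The median log2 fold change of the members was -0.11, beside 0.09 for all genes. This split depended on the scaling and on single libraries. With every library brought to the same total, 24 members were higher and 22 lower, with a member median of 0.01 and a median of all genes of 0.20, a shift of all genes that moves the members with it. Without E3–E12 diet library 1, 25 members were higher and the member median was 0.10, and without control library 2, 22 were higher and the median was -0.02.

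The groups did not overlap in 3 members, Psma3, Psmb4 and Psme4, where 5.9% of all genes tested did not overlap. Psmb4 was the member whose 3 E3–E12 diet libraries all lay above the controls (2.99% of all genes), and Psma3 and Psme4 were those that lay below (2.91% of all genes). An exact permutation test, two-sided, gave p = 0.1 for each of them, the smallest p that 3 libraries against 3 can give.

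**Figure D2:**
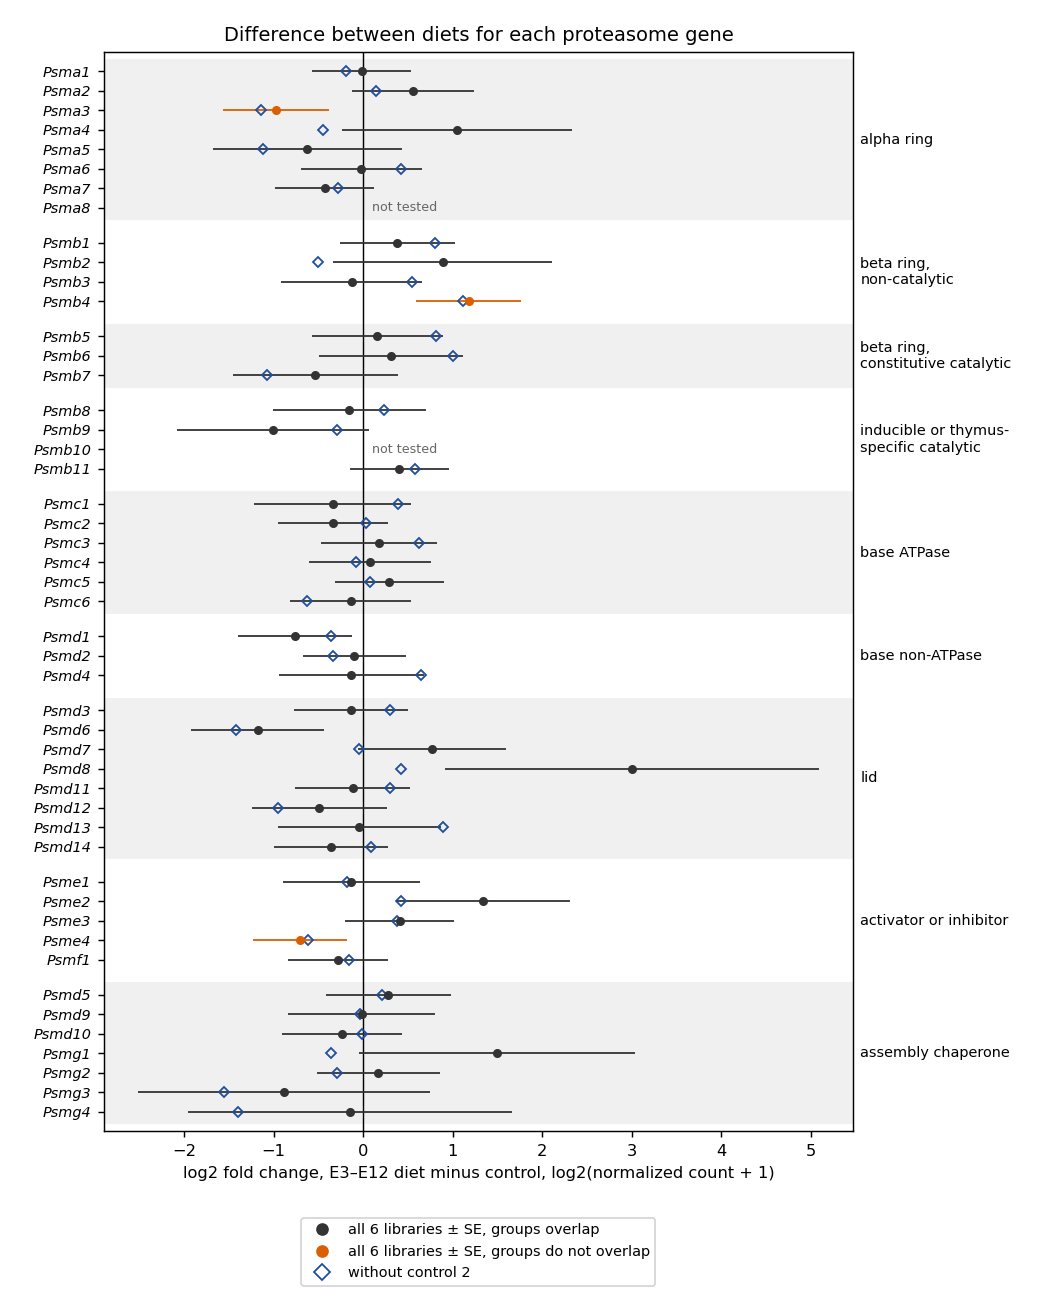
Log2 fold change of each tested proteasome gene, E3–E12 diet minus control, on the log2(normalized count + 1) scale. Filled points are all 6 libraries with the standard error as bars, orange where the groups did not overlap, and open diamonds are the values without control library 2. The longest bars, for Psmd8 and Psmg4, belong to genes listed at 0 in at least 1 library, and for Psmd8 the value drops from 2.998 to 0.42 without control library 2.

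The alpha ring had 2 members higher and 5 lower of 7 tested, with a median log2 fold change of -0.02. The sign of that median rested on single libraries, since it lay between -0.39 (without control library 1) and 0.15 (without E3–E12 diet library 2) when single libraries were left out, and was -0.28 without control library 2. Psma3, an alpha subunit encoded on chromosome 12 (GRCm38, 70974621 to 70996347, plus strand), was read at 249, 246 and 489 normalized counts in control libraries 1, 2 and 3 and at 174, 122 and 183 in E3–E12 diet libraries 1, 2 and 3. Every E3–E12 diet library was below every control, and the log2 fold change was -0.98 ± 0.59 SE (limma adjusted p = 0.999 with Benjamini-Hochberg adjustment), and -1.14 without control library 2. Values of single genes are given in this order of libraries throughout. Of the 50-base windows of its transcripts, 15.4% also occur in other annotated genes, so part of its count is uncertain. Psma4 showed the other kind of pattern. Its counts were 142, 7.24 and 240 in control libraries, against 154, 143 and 112 in E3–E12 diet libraries, so that a log2 fold change of 1.05 (standard error 1.29) turned to -0.45 without control library 2. Psma1 had the narrowest range of the ring, with all 6 libraries between 86.2 and 133 normalized counts. Psma5 ran from 13.3 in E3–E12 diet library 1 to 186 in E3–E12 diet library 2, both extremes within the same diet. Psma2 lay between 137 and 498, Psma6 between 127 and 394 and Psma7 between 151 and 314, and the diets overlapped in all 3.

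Of the 4 tested non-catalytic beta subunits, 3 were higher and 1 was lower, with a median log2 fold change of 0.63, and no member of this group passed the test. Psmb4, a beta subunit whose tail helps to hold the barrel together, lies on chromosome 3 (94884093 to 94886961, minus strand) and shares none of its windows with other genes. It was read at 128, 103 and 107 normalized counts in control libraries, against 177, 232 and 403 in E3–E12 diet libraries. The controls lay close together and the E3–E12 diet libraries spread upward from just above them, with means of 113 ± 13.4 and 271 ± 118 (SD, n = 3 libraries each). Its log2 fold change of 1.18 (standard error 0.58) had the smallest unadjusted p of the members, 0.0857 in limma, which is 0.999 after Benjamini-Hochberg adjustment, and it was 1.12 without control library 2. Psmb2 had 113, 7.31 and 197 normalized counts in controls and 80.0, 114 and 127 in E3–E12 diet libraries. As for Psma4, control library 2 alone was low, and the log2 fold change of 0.89 became -0.50 without it. Psmb1 (173 to 525 normalized counts) and Psmb3 (71.0 to 347) were both lowest in control library 1 and highest in control library 2.

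Of the 3 standard catalytic subunits, 2 were higher and 1 lower in their mean log2 level, with a median log2 fold change of 0.16, which was 0.81 without control library 2 and -0.31 without control library 1. They are Psmb5, with chymotrypsin-like activity, Psmb6, with caspase-like activity, and Psmb7, with trypsin-like activity. Psmb5 was read at 163, 772 and 240 normalized counts in control libraries, against 336, 315 and 399 in E3–E12 diet libraries. Psmb6 was read at 215, 1094 and 308 in control libraries, against 559, 323 and 759 in E3–E12 diet libraries. In both genes control library 2 was the highest of all and every E3–E12 diet library lay above the other controls. The log2 fold changes of Psmb5 and Psmb6 were 0.16 (standard error 0.74) and 0.31 (standard error 0.80), and 0.81 and 1.002 without control library 2. Psmb7 did not share this order, with 142, 72.7 and 359 normalized counts in control libraries, against 39.8, 138 and 219 in E3–E12 diet libraries (log2 fold change -0.53 ± 0.92 SE, and -1.07 without control library 2). Of the windows of Psmb5, 54.1% also occur in other annotated genes, a pseudogene among them, so its level is uncertain.

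Upstream sequences are shown for the catalytic genes Psmb5 and Psmb6, whose windows hold the motif below, and for the members whose groups did not overlap. They come from RefSeq (GRCm38.p6), read 5′ to 3′ on the gene's strand and ending before annotated exons, with capitals marking TGACNNNGC, the core of the antioxidant response element bound by Nfe2l2 and Nfe2l1, transcription factors of proteasome genes. The stretches are chr14:54618023-54618095 (minus strand) for Psmb5, chr11:70525257-70525356 (plus) for Psmb6, chr12:70974523-70974620 (plus) for Psma3, chr3:94886962-94887058 (minus) for Psmb4 and chr11:30771675-30771725 (plus) for Psme4.
Psmb5: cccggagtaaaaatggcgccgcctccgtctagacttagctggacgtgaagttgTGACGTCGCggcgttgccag
Psmb6: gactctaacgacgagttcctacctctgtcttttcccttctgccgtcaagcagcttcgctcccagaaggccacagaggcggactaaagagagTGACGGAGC
Psma3: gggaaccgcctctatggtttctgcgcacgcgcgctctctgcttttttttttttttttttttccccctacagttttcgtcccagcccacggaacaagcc
Psmb4: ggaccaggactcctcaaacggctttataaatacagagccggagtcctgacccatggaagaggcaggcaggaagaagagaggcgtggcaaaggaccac
Psme4: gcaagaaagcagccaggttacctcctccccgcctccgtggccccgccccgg

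In windows of 250 bases before to 50 after the start, which were found for 40 members (43 windows, 38 of them with the bases after the start inside a GENCODE transcript of the gene), TGACNNNGC occurred on either strand in 6 (13.95%), those of Psmb5, Psmb6, Psmc6, Psmd9, Psmd12 and Psme4, against 12.4% of the 32851 windows of all genes. Its match began at position -47 from the start in Psmb5, -9 in Psmb6 and -7 in Psme4, the last outside the stretch printed. GAAANNGAA, the core of the interferon-stimulated response element, occurred in 7 windows (16.3%, against 8.56% of all), those of Psmb3, Psmb4, Psmc2, Psmd4, Psmd9, Psme1 and Psmg4. TTCNNNGAA, the STAT site, occurred in 3 (6.98%, against 8.30%), those of Psmb8 at -97, Psmd2 and Psmg1, and no match of a motif overlapped another. Members with TGACNNNGC differed in their order of libraries. Psmb5 and Psmb6 were highest in control library 2, in which Psmc6, at 49.4 normalized counts, was lowest.

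The immunoproteasome subunits were present in part. They were grouped with the thymus-specific Psmb11, and of the 3 tested genes of this group 1 was higher and 2 were lower, with a median log2 fold change of -0.15. The higher gene was Psmb11, and the tested inducible subunits Psmb8 and Psmb9 were both lower. The direction turned without control library 2 (2 of 3 higher, median 0.23) and without E3–E12 diet library 1 (median 0.33), and the median was -0.62 without control library 1 and -0.73 without E3–E12 diet library 3. Psmb8, which takes the place of Psmb5, was read at 92.7, 305 and 200 normalized counts in control libraries, against 64.1, 179 and 358 in E3–E12 diet libraries (log2 fold change -0.15 ± 0.85 SE, and 0.23 without control library 2). The groups overlapped over nearly their whole range. Psmb9, which takes the place of Psmb6, was read at 22.2, 276 and 171 in control libraries, against 89.0, 25.3 and 57.0 in E3–E12 diet libraries (log2 fold change -1.01 ± 1.07 SE, and -0.30 without control library 2). Its lowest and highest values were both in controls. Psmb10, which takes the place of Psmb7, was listed at 0 in 5 libraries and at 5.89 in control library 3. Psmb11, a subunit of thymic epithelium, lay between 160 and 327, with the diets overlapping. Psmb8 and Psmb9 lie in the MHC class II region of chromosome 17, and 14.7% of the exonic bases of Psmb8 and 5.79% of those of Psmb9 overlap genes on the opposite strand, Gm20496 and Tap1. Reads of the overlapping genes can be told apart only if strand was counted, which is not given in the sources used here.

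The ratio of an inducible subunit to the subunit that it displaces is free of a library's scaling factor but for the pseudocount, and was taken as the difference of their log2(normalized count + 1) values. For Psmb8 against Psmb5 it was -0.81, -1.34 and -0.26 in the controls and -2.37, -0.81 and -0.16 in E3–E12 diet libraries. The inducible gene was thus below its partner in all 6 libraries, and the diets differed by -0.31 (exact permutation test, two-sided, p = 0.8, also 0.8 after adjustment over the 3 pairs). For Psmb9 against Psmb6 it was -3.21, -1.98 and -0.84 in the controls and -2.64, -3.63 and -3.71 in E3–E12 diet libraries. Here the means were -2.01 ± 1.19 in controls and -3.32 ± 0.60 in E3–E12 diet mice (SD, n = 3 libraries each), a difference of -1.31 with an exact permutation p of 0.2, or 0.6 after adjustment. This difference was -1.91 without control library 1 and -0.73 without control library 3. Control library 1 lay among the E3–E12 diet libraries. The third pair, Psmb10 against Psmb7, differed by -0.39 (exact permutation p = 0.8), a value set by Psmb7 alone in the 5 libraries that list Psmb10 at 0.

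**Figure D3:**
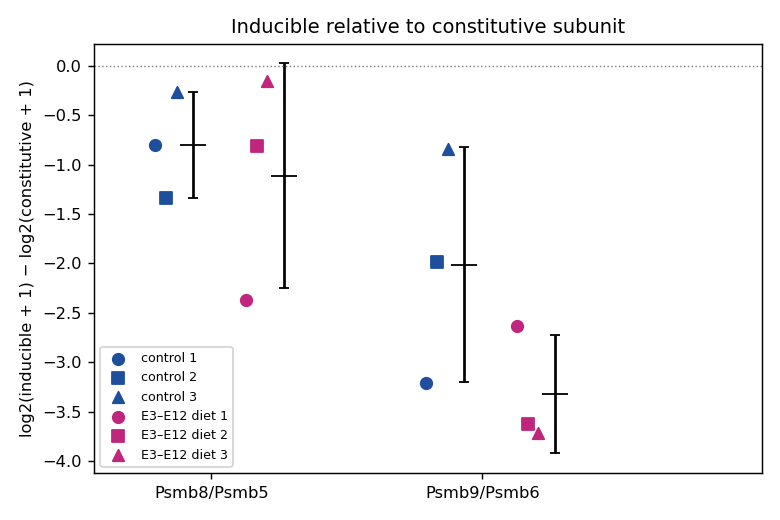
Difference of log2(normalized count + 1) between an inducible catalytic subunit and the constitutive subunit that it replaces, for Psmb8/Psmb5 and Psmb9/Psmb6. Points are the 3 control (blue) and 3 E3–E12 diet (magenta) libraries, and black bars are the group mean ± SD. All points are below 0, and the groups overlap in both pairs.

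In the 19S base, the ATPases split evenly, with 3 higher and 3 lower and a median log2 fold change of -0.03, which lay between -0.13 and 0.0523 when single libraries were left out, the latter without control library 2 (4 of 6 higher). Psmc2, the ATPase with the smallest unadjusted p, was read at 674, 1509 and 735 normalized counts in control libraries, against 949, 531 and 739 in E3–E12 diet libraries (log2 fold change -0.33 ± 0.62 SE, and 0.0314 without control library 2). Psmc1 ran from 97.8 in control library 1 to 720 in control library 2, and Psmc3, Psmc4, Psmc5 and Psmc6 lay between 49.4 and 752, with the diets overlapping in each. All 3 non-ATPase subunits of the base were lower in their mean log2 level, with a median of -0.13, which was -0.71 without control library 1 and -0.34 without control library 2, where 1 of the 3 was higher. Psmd1, a scaffold of the base, had 749, 1806 and 800 in control libraries, against 427, 786 and 656 in E3–E12 diet libraries, of which 1 lay above the lowest control (log2 fold change -0.77 ± 0.64 SE, exact permutation p = 0.2, and -0.36 without control library 2). Psmd2, the other scaffold of the base, ran from 232 to 488, with the diets overlapping. Psmd4, a receptor for ubiquitin chains, was read at 134, 880 and 228 in control libraries, against 246, 313 and 266.5 in E3–E12 diet libraries. The E3–E12 diet libraries lay close together between control library 2 and the other controls, so that the log2 fold change of -0.13 (standard error 0.81) became 0.64 without control library 2.

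Of the 8 lid subunits, 2 were higher and 6 lower, with a median log2 fold change of -0.13. Without control library 2 this turned to 5 of 8 higher and a median of 0.19, and the median was -0.39 without control library 3. Psmd14, the deubiquitinase of the lid, was read at 164, 427 and 175 normalized counts in control libraries, against 149, 231 and 169 in E3–E12 diet libraries (log2 fold change -0.36 ± 0.64 SE, and 0.0882 without control library 2). Leaving out control library 2, its 5 values ran from 149 to 231. Psmd6, a structural subunit, had the smallest unadjusted p of the lid (0.159 in limma), with 162, 117 and 229 in control libraries, against 36.1, 164 and 61.2 in E3–E12 diet libraries (log2 fold change -1.18 ± 0.74 SE, exact permutation p = 0.3). In it, 2 of the 3 E3–E12 diet libraries were below all controls. Psmd8, another structural subunit, had the largest log2 fold change of the members, 2.998 ± 2.09 SE, with an exact permutation p of 0.2. Its counts were 149, 0 and 301 in control libraries, against 314, 194 and 375 in E3–E12 diet libraries. The size of that difference rests on control library 2, in which the gene was listed at 0, and without it the log2 fold change was 0.42. Psmd11, the lid subunit with the highest level per kilobase, ranged from 1073 to 2759 normalized counts. It was highest in control library 2, as were Psmd3 (413 to 1112) and Psmd13 (43.5 to 331), whereas Psmd7 was lowest there (35.5, against 156 to 237 in the other libraries). Psmd12 ran from 117 to 400, and the diets overlapped in it.

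Activators and the inhibitor gave 2 higher and 3 lower of 5, with a median log2 fold change of -0.13, which lay between -0.38 (without control library 1) and 0.29 (without control library 3) when single libraries were left out. Psme1 and Psme2 encode the subunits of the interferon-induced activator PA28. Psme1 was read at 292, 538 and 1195 normalized counts in control libraries, against 369, 406 and 956 in E3–E12 diet libraries (log2 fold change -0.13 ± 0.77 SE). Psme2 was read at 180, 31.7 and 274 in control libraries, against 236, 189 and 582 in E3–E12 diet libraries (log2 fold change 1.34 ± 0.97 SE, and 0.42 without control library 2). The partners of this activator thus diverged in control library 2, where Psme1 was above and Psme2 below the other libraries' medians, and 28.3% of the windows of Psme2 occur in other annotated genes. Psme3, the activator subunit of the nucleus, had 997, 776 and 679 in control libraries, against 714, 968 and 1786 in E3–E12 diet libraries (log2 fold change 0.41 ± 0.61 SE).

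Psme4, which encodes the activator PA200, was with Psma3 the member below every control in all 3 E3–E12 diet libraries. It lies on chromosome 11 (30771726 to 30880361, plus strand), and none of its windows occur in another gene. It was read at 1058, 1324 and 1124 normalized counts in control libraries, against 655, 815 and 680 in E3–E12 diet libraries, means of 1168 ± 138 and 717 ± 85.8 (SD, n = 3 libraries each). The log2 fold change was -0.70 ± 0.52 SE (limma adjusted p = 0.999 with Benjamini-Hochberg adjustment), and -0.61 without control library 2. In limma the fit draws the variance of each gene toward that of the other genes, which enters this standard error. Psmf1, the inhibitor PI31, had 295, 402 and 330 in control libraries, against 233, 394 and 237 in E3–E12 diet libraries (log2 fold change -0.28 ± 0.56 SE, and -0.16 without control library 2), so that 1 E3–E12 diet library lay within the range of the controls.

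The assembly chaperones gave 3 higher and 4 lower of 7, with a median log2 fold change of -0.02. It was -0.29 without control library 2 (1 of 7 higher) and 0.47 without E3–E12 diet library 1. Psmg1, which pairs with Psmg2 to order the alpha ring, was listed at 0 in control library 2 and lay between 31.5 and 57.6 normalized counts in the other 5 libraries. Its log2 fold change of 1.495 (standard error 1.54) became -0.36 without that library. Psmg3 and Psmg4 were also listed at 0 in places, Psmg3 in E3–E12 diet library 2 and Psmg4 in control library 2 and E3–E12 diet library 1. The standard errors of their log2 fold changes were 1.63 and 1.81. Psmg2 ran from 21.6 to 73.1. Psmd5, a chaperone of the base, ran from 227 to 798, Psmd9 from 49.1 to 305 and Psmd10 from 13.7 to 44.1, and the diets overlapped in all of them.

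Although single members moved apart, their sum held a steady share of each library. The 48 members together took 1197, 1147 and 1228 CPM in control libraries, against 1242, 1179 and 1150 in E3–E12 diet libraries, with means of 1191 ± 40.7 and 1191 ± 47.0 (SD, n = 3 libraries each). The highest library was 1.08 times the lowest, and the same was not computed for other gene lists of this size. The sum of the 30 partner genes described below spanned 2.67-fold and that of the 8 microglia markers 2.81-fold over the same libraries, sums that a few abundant genes can set. Within the members, 5 genes (Psmd11, Psme3, Psme4, Psmc2 and Psmd1) made up between 30.4% and 41.4% of the sum. The lid subunits took 241 to 286 CPM and the alpha ring 71.2 to 159. Mitochondrial genes took between 6.69% and 23.0% of a library, and with these left out of the total the members ranged from 1230 to 1507 CPM, with control library 2 the lowest.

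**Figure D4:**
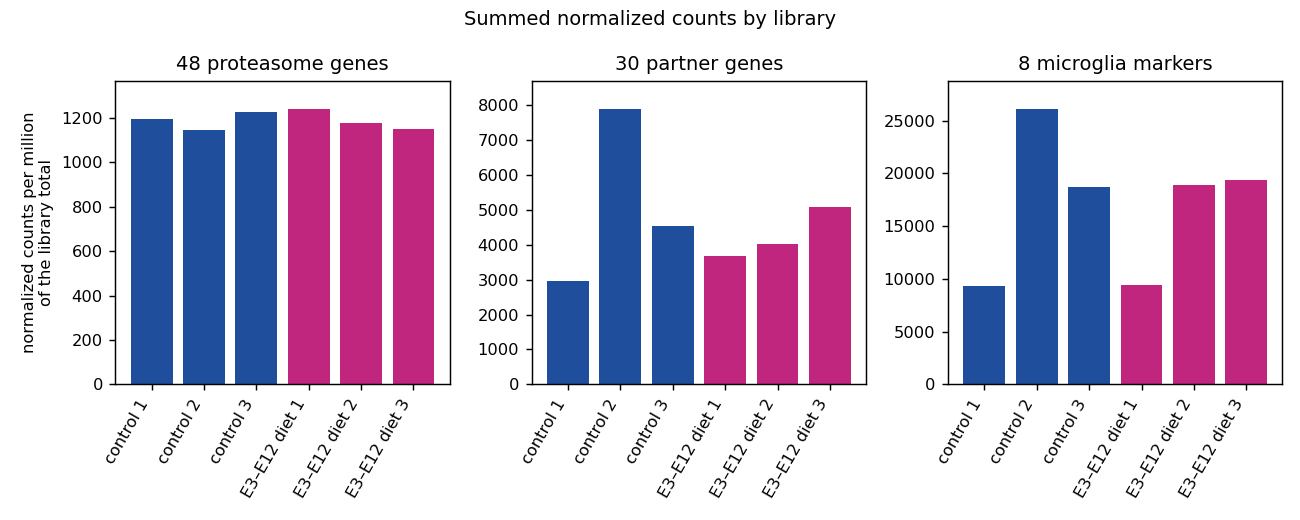
Summed CPM (normalized counts as a share of the library total, times 1000000) for the 48 proteasome genes, the 30 partner genes and the 8 microglia markers, 1 bar per library from 0, controls in blue and E3–E12 diet in magenta, each panel with its own axis. The proteasome sum stays between 1147 and 1242 CPM, while the partner sum runs from 2956 to 7895 and the marker sum from 9313 to 26132.

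Replicate libraries of a diet differed from each other in many members by over 2-fold. Control libraries 1 and 3 did so in 9 of 46 members (36.4% of all genes). Control library 2 did so in 30 members against control library 1 (65.4% of all genes) and in 29 against control library 3 (62.2%). The E3–E12 diet libraries differed in 11 members between 1 and 2 (50.3% of all genes), 13 between 1 and 3 (51.2%) and 14 between 2 and 3 (39.7%). Pairs without control library 2 thus had fewer members apart than the share of all genes would give. Median levels, 227 normalized counts for the members and 144 for all genes, differ as well, and their part in this was not tested.

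Control library 2 was the highest library in 19 of 46 members and the lowest in 13, or 41.3% and 28.3%, against 26.3% and 38.2% of all genes. Compared with the mean log2 level of the other controls, 16 members were over 2-fold above in it (24% of all genes) and 14 over 2-fold below (39.1%). The members highest above included Psmd13 (by 2.80 on the log2 scale), Psmd4 (2.33), Psmc1 (2.19), Psmb9 (2.13) and Psmb6 (2.08). Those farthest below were Psmd8 (-7.73), Psmg1 (-5.56), Psma4 (-4.49) and Psmb2 (-4.18). Subunits of the same ring thus lay on both sides, Psmb6 above and Psmb2 below.

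**Figure D5:**
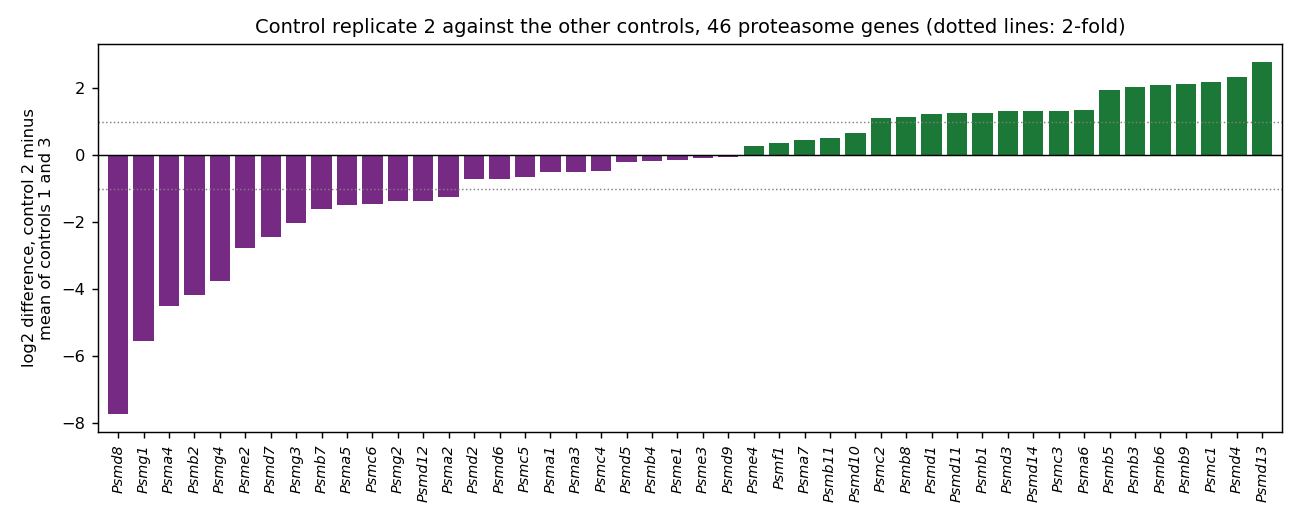
Log2 difference between control library 2 and the mean of control libraries 1 and 3 for each of the 46 tested proteasome genes, in rising order, with dotted lines at 2-fold. Bars above 0 (green) are genes higher in control library 2 and bars under 0 (purple) genes lower in it, and 16 and 14 genes pass the lines.

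Over the 6 libraries, members varied together little. The mean Pearson correlation of log2 levels over the 1035 pairs of members was 0.026, over pairs of the 14 core subunits 0.0025 and over pairs of all genes 0.010. Without control library 2, the mean was 0.077 for members and 0.0024 for all genes. Single pairs ranged from -0.975 to 0.996, and the highest, such as Psmg1 with Psma4, are pairs that were both low in control library 2. The genes whose levels followed the mean of the members most closely were Slc4a7 (r = 0.998), a bicarbonate transporter, Grk3 (r = 0.986), a receptor kinase, and Tmed10 (r = 0.983), a cargo receptor of the secretory pathway. They were picked as the highest of many genes over only 6 libraries, which share scaling and composition. Correlations near 1 can follow from such a pick alone, and a tie to the proteasome was not tested.

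Genes that work with the proteasome but lie outside the name pattern were read from a list of 32, of which 30 were in the table and all 30 were tested. No partner passed the adjusted threshold or an unadjusted p under 0.05 in limma (0 of 30 each), and the mean log2 level was higher under the E3–E12 diet for 16 and lower for 14, with a median log2 fold change of 0.06. Adrm1, the ubiquitin receptor at the tip of the cap, was the 1 partner of 30 without overlap between diets, where 5.9% of all genes tested did not overlap. It was read at 264, 103 and 328 normalized counts in control libraries, against 449, 630 and 374 in E3–E12 diet libraries (log2 fold change 1.19 ± 0.67 SE, exact permutation p = 0.1, limma adjusted p = 0.999 with Benjamini-Hochberg adjustment). Control library 2 was its lowest, and without it the log2 fold change was 0.68.

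Of 6 genes for transcription factors or the protease that frees Nfe2l1, 5 were higher and 1 lower in their mean log2 level. Nfe2l1, which raises proteasome genes when degradation is blocked, was read at 861, 847 and 1483 normalized counts in control libraries, against 1498, 1328 and 1624 in E3–E12 diet libraries. Its groups overlapped by control library 3 alone. Of the 5 genes of class I peptide loading, 1 was higher, Tap2 (log2 fold change 1.14 ± 0.70 SE), and 4 lower. B2m, the light chain of class I molecules, was read at 6400, 69602 and 18968 in control libraries, against 10698, 11088 and 32388 in E3–E12 diet libraries, and Tap1, a peptide transporter next to Psmb9, at 107, 307 and 461 in control libraries, against 104, 341 and 297 in E3–E12 diet libraries. The diets overlapped in both genes. The split of these loading genes depended on control library 2. Without it the log2 fold change was 0.51 for B2m, 0.29 for Tapbp and 0.94 for Tap2, against -0.02 for Tap1 and -0.44 for Erap1.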

How the data were processed

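RNA-seq libraries of microglia from 3 control and 3 E3–E12 diet litters were compared. The authors deposited normalized counts per gene, a signal scaled between libraries and named by Ensembl identifier. The submitters' processing notes name FastQC, STAR, featureCounts and DESeq2 and the build GRCm38, with no versions; the name of the table mentions surrogate variables, and how these entered is not given in the sources used here. The values are neither whole numbers nor whole multiples of a step per library, so reads behind a value are unknown and no counting interval can be given. Groups and replicate numbers come from the titles of the samples.

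Symbols and positions came from GENCODE M21 (GRCm38), which matched 26507 identifiers. With R 4.3.3 and limma 3.58.1, log2(normalized count + 1) was fitted for all genes with a mean of at least 10, with no covariate, and p-values were adjusted by Benjamini-Hochberg over all genes with the study's threshold of 0.1. Ratios and single values were tested by exact permutation over the 6 libraries, two-sided. The fit was tested on simulated data. Levels per kilobase used the union of annotated exons. Windows of 50 bases shared with other annotated genes mark members whose reads can be assigned elsewhere. Alternatives were another pseudocount, filter, scaling, variance model, covariate, a replicate block and each library left out. The genes named with values in every library are the catalytic and inducible beta subunits, Psme1 to Psme4, Psmf1, Psmd4, Psmd8, Psmd14, the member with the smallest unadjusted p of each role, and members or partners without overlap. Psma4, Psmb2 and Psmb11 and partners with overlap were added after their values were seen. Members and lists were chosen with earlier results of these data known.

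The correlation of the deviations of same-numbered libraries from their group means was 0.26, 0.035 and 0.14 for numbers 1, 2 and 3 across all genes, and nothing in the labels ties the numbers to a shared litter or day, so the numbers were not taken as pairs.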

Additional observations from a re-analysis of the deposited data

How the results depend on the processing

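No member and no partner gene passed the adjusted threshold under any alternative run. Members past the unadjusted threshold numbered 0 with all libraries and 1, Psmd8, with the first component of the residuals as a covariate (limma adjusted p = 0.570 with Benjamini-Hochberg adjustment). With it, 7.90% of all genes passed. This covariate was taken from the residuals of the same fit, which lowers the standard errors. Among the partners, Ddi2 passed it with the same covariate (log2 fold change -1.19, limma adjusted p = 0.629 with Benjamini-Hochberg adjustment). Leaving out 1 library at a time, the number of members lay between 0 and 1, the 1 being Psmb9 without control library 1 (limma adjusted p = 0.866 with Benjamini-Hochberg adjustment). Without that library, 3.02% of all genes passed. Of the 46 members, 31 changed the sign of their log2 fold change in some alternative, 9 of them in one other than leaving out a library. The sign held in 15, Psma3, Psmb4 and Psme4 among them. The groups of these named genes did not overlap, so leaving out a library cannot change their sign. The replicate block, the covariate and the variance model leave every log2 fold change as it is. The share of all genes that kept their sign was not computed. With each library left out in turn, the log2 fold change of Psma3 ranged from -1.14 to -0.65, of Psmb4 from 0.85 to 1.44, of Psme4 from -0.80 to -0.61, of Psmd8 from 0.42 to 4.54 and of Psmb9 from -2.08 to -0.30. It crossed 0 for Psma4 (-0.45 to 1.99), Psmb2 (-0.50 to 1.78), Psmb5 (-0.31 to 0.81), Psmb6 (-0.17 to 1.002), Psmb7 (-1.07 to 0.17), Psmb8 (-0.73 to 0.50), Psmc2 (-0.55 to 0.0314), Psmd4 (-0.71 to 0.64), Psmd14 (-0.60 to 0.0882), Psme1 (-0.61 to 0.40) and Psmg1 (-0.36 to 2.58). The difference of the Psmb8/Psmb5 ratio ranged from -0.79 to 0.32, that of Psmb9/Psmb6 from -1.91 to -0.73 and that of Psmb10/Psmb7 from -1.09 to 0.12, and the latter was 0.26 with a pseudocount of 10. The cause was not tested.

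With the replicate number as a block, 0 genes passed the adjusted threshold (smallest adjusted p = 0.980, limma with Benjamini-Hochberg adjustment), 468 had an unadjusted p under 0.05 and 0 members did, and the median log2 fold change of the members stayed at -0.11. In 5 of 6 libraries the highest correlation with the other diet was to the same number, control library 2 being the exception, a hint from the data and not from the design. Of all genes, 327 had an unadjusted p under 0.05, against 1423 with the covariate, 539 without control library 1 and 491 with quantile normalization. A mean of at least 50 normalized counts in place of 10 called 1 gene, no member. Restricting to the 36 tested members with under 10% of windows shared, a choice made after seeing the data, gave a member median of -0.08, with 15 higher. Filters, covariate and variance model do not enter the ratios and were not run for them. With 3 libraries a group, the exact test cannot pass 0.05, and the unknown depth of each library leaves the error of single low values open.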

Other observations

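Psmb11 encodes a catalytic beta subunit known from the cortical epithelium of the thymus, and its row was well above 0 in every library. It was read at 241, 281 and 160 normalized counts in control libraries 1, 2 and 3 and at 327, 284 and 271 in E3–E12 diet libraries 1, 2 and 3 (0.40 ± 0.55 SE on the log2 scale, exact permutation p = 0.2, two-sided). The E3–E12 diet libraries lay between 271 and 327, and 1 control lay within that range. The gene lies on chromosome 14 (GRCm38, 54621433 to 54629556, plus strand), beside Psmb5, which starts at 54618022 on the other strand. Of its 4791 annotated exonic bases, 906 are coding. Other annotated genes share 2.62% of its 50-base windows, and these windows are spread over 594 such genes. Where in the gene the reads fell cannot be read from a table of counts per gene.

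Ddi2, the protease that frees Nfe2l1, had 9636 in control library 2 and between 643 and 1675 in the other 5 libraries. Nub1, by contrast, was listed at 0 in control library 2 and lay between 44.9 and 177 in the others. These genes were chosen after their values were seen.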
